A study of Homo sapiens with 6 samples.

Results

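The BCL2 family sets the threshold for mitochondrial apoptosis, and 10 of its genes were followed here in OE19, a cell line derived from an oesophageal adenocarcinoma (OAC). They were the genes of 10 named family members that were present in a table of 13345 genes, and the rule for membership used gene names and no measured value. Messenger RNA was sequenced from 3 cultures given a locked nucleic acid (LNA) inhibitor of the microRNA miR-451a and from 3 cultures given Negative Control A, an LNA inhibitor control, in 3 numbered experiments that each held both treatments. All 6 libraries came from this single line, and the labels attach the same treatment text, on irradiation and mock irradiation, to each of them without saying which the sequenced cultures received. The libraries are called inhibitor 1 to 3 and control 1 to 3, after the experiment. The study asked which messages changed when miR-451a was inhibited in these cells.

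In this pathway, guardian proteins such as MCL1 and BCL-XL (the product of BCL2L1) hold back the effectors BAX and BAK1, which otherwise form pores in the outer mitochondrial membrane and release cytochrome c. Proteins with only a BH3 domain (BID, BAD, BIK, BIM, PUMA and NOXA, the last 3 encoded by BCL2L11, BBC3 and PMAIP1) relay damage, starvation or death receptor signals by occupying the guardians or by engaging the effectors. Much of this control acts on the proteins, through cleavage, phosphorylation and turnover, and is not seen in messenger RNA.

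Each value below is a normalised count for a gene, adjusted by the authors for GC content and length within a library and scaled between libraries. The adjusted counts summed to between 14084387 and 18726440 per library, and inhibitor 3, at 15362439, lay within that range. Inhibitor 3 nevertheless stood apart. In 35.7% of the 12723 genes tested its value was over 1.5 times, or under the inverse of that, the median of the remaining libraries, whereas this share was between 5.75% and 11.3% in each of the others. All 8 columnar epithelial markers examined were present, and their values summed to between 107190 and 124670 in inhibitor libraries and between 99053 and 121880 in control libraries. KRT8 was the highest of them in each library, at 48381 to 59299, and KRT7 the lowest, at 93.1 to 133. CLDN4 was 15712 in inhibitor 3 and between 4688 and 5979 in the other libraries, which the sums do not show. ERBB2, a receptor gene known to be amplified in OE19, had values between 51756 and 109620 in inhibitor libraries and between 48410 and 90232 in control libraries. In inhibitor 1, inhibitor 3 and control 1 it was among 15 genes that shared the highest value, so its differences between libraries cannot be read. The libraries thus carried the markers that the label of the line calls for. Of the mesenchymal markers 3 of 6 had a row in the table, and they summed to between 263.3 and 312 in inhibitor libraries and between 278 and 344 in control libraries. VIM, the vimentin gene and 1 of those 3, had values of 11.4, 8.096 and 32.2 in inhibitor libraries and 11.5, 7.48 and 4.13 in control libraries. VIM was thus highest in inhibitor 3. DCN, with values between 2.02 and 7.27, was highest there too. COL1A1, which made up most of each sum, was 251 there and between 247 and 338 in the other libraries. The part of these markers in the results was not tested. Of the squamous markers 4 of 5 had a row, and they summed to between 301 and 329 in inhibitor libraries and between 350.3 and 421 in control libraries. The squamous sums were therefore lower with the inhibitor without overlap, but 0 of the 3 tested squamous markers had groups that were apart. KRT6A, the highest of them in each library, had 253, 199 and 245 in inhibitor libraries and 299, 232 and 195 in control libraries. DSG3 stood at 109 in control 3 and between 28 and 45.9 in the other libraries. The matching share over sums of genes was not measured, so nothing is read from these sums. Their part in the results was not tested. Among the blood cell markers LYZ, a lysozyme gene that gastric-type epithelium also expresses, had values between 17238 and 20095 in inhibitor libraries and between 17005 and 18209 in control libraries.

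No BCL2 family member changed past the threshold when miR-451a was inhibited. All 10 members passed the filter on low values, and 0 of 10 passed an adjusted p of 0.05 (limma, two-sided, adjusted over all genes tested), where 0% of all genes did and the smallest member adjusted p was 0.899. Before adjustment, 0 members reached p of 0.05 with limma, DESeq2 or edgeR. Of the 12723 genes tested, 119 (0.935%) did with limma, 250 with DESeq2 and 163 with edgeR. In 0 of 10 members did the values of the groups separate, against 2.71% of genes with all inhibitor values above the control values and 2.9% with all below. The median log2 difference was 0.07 over the members, of which 6 had a positive and 4 a negative value, and -0.0035 over all genes tested. Without inhibitor 3 the median over the members was 0.0055. In bulk libraries a lower value can mean fewer cells that express a gene or less RNA per cell, and these cannot be told apart.

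The members kept their outer places in every library. On the scale adjusted for length, MCL1 was the highest member in all 6 libraries, BCL2L1 the next and PMAIP1 the lowest. In control libraries BID, BAX, BAK1, BAD, BIK, BBC3 and BCL2L11 lay between them in that order of means. The ranges of neighbours in this order overlapped between BID and BAX, between BAD and BIK and between BBC3 and BCL2L11, and did not overlap between the others. The members varied little among control libraries, where the SD was between 2.96% (BAK1) and 14.3% (BCL2L1) of the mean. The spread among inhibitor libraries was wider for some members and narrower for others. It reached 65.7% for BBC3, 32.9% for BAX and 29.4% for BID, in each of which inhibitor 3 alone stood off. It was narrower than among controls for BCL2L1 (6.62%), BIK (2.78% against 7.63%) and PMAIP1 (9.91% against 10.5%). The matching share over all genes was not measured.

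**Figure D1:**
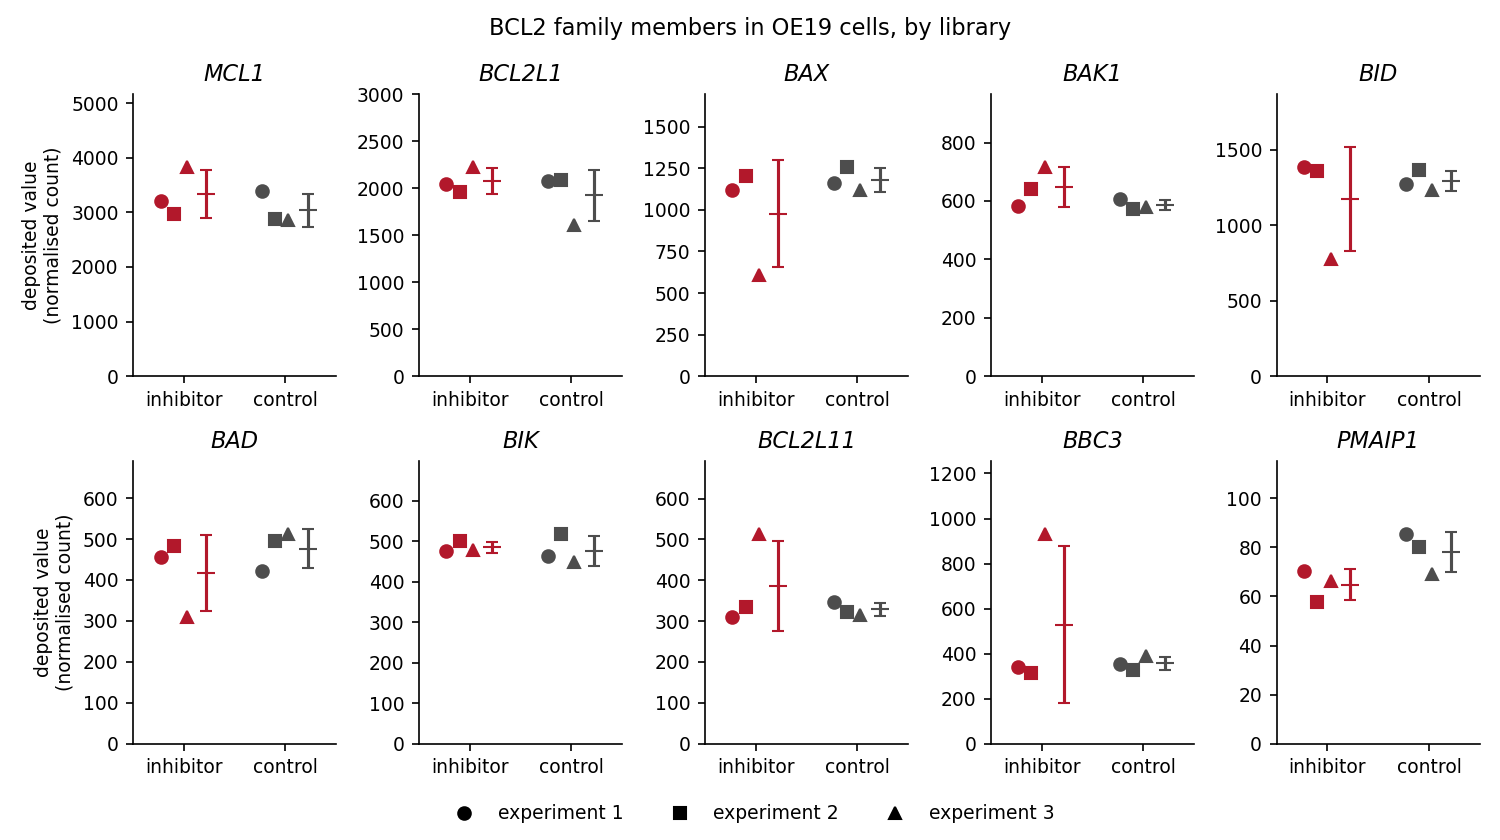
Normalised counts (vertical axes, each starting at 0) of the 10 members in the 3 inhibitor and 3 control libraries, where symbols mark the experiment and the bar beside each group is its mean with the SD (n = 3). Inhibitor 3 (red triangle) lies at 929.9 for BBC3 and at 608 for BAX, away from the other 5 libraries, while BIK is level throughout.

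The guardians came first in level. MCL1 (ENSG00000143384.12; GRCh38 chromosome 1, 150574558 to 150579610) encodes a short-lived guardian that binds BAK1, BIM, PUMA and NOXA. Its values were 3201, 2975 and 3835 in inhibitor 1, 2 and 3, and 3388, 2875 and 2859.9 in control 1, 2 and 3. Inhibitor 3 was the highest library and the other 2 inhibitor values lay within the control range. The log2 difference was 0.13 ± 0.15 (SE) with a 95% interval from -0.22 to 0.48, and it was 0.026 without inhibitor 3. BCL2L1 (ENSG00000171552.12; chromosome 20, 31664452 to 31723963) encodes the guardian BCL-XL and, by another splice, a shorter form that promotes death, which a value per gene does not separate. BCL2L1 had values of 2051, 1958 and 2229 in inhibitor libraries and 2081, 2086 and 1607 in control libraries. Only control 3 stood low, and the groups overlapped. Its log2 difference was 0.12 ± 0.15 (SE), and it was -0.0047 without control 3.

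BAX and BAK1, the pore formers, went different ways in inhibitor 3. BAX (ENSG00000087088.19; chromosome 19, 48954875 to 48961798), whose protein moves to mitochondria when activated, had values of 1119, 1202 and 608 in inhibitor libraries and 1163, 1259 and 1120.4 in control libraries. The inhibitor 3 value was 0.523 times the median of the other 5 libraries, which lay close together. BAX was lower with the inhibitor in each experiment, by ratios of 0.962, 0.955 and 0.543 to the control of the same number, so that the first 2 experiments differed by a few percent. The log2 difference of -0.33 ± 0.25 (SE; limma adjusted p 0.899) was -0.0243 without inhibitor 3. BAK1 (ENSG00000030110.12; chromosome 6, 33572552 to 33580276), whose protein resides in the outer mitochondrial membrane, had values of 581, 643 and 717 in inhibitor libraries and 606, 572.5 and 579.8 in control libraries. Inhibitor 1 lay within the control range, and inhibitor 2 and 3 lay above it. The log2 difference was 0.14 ± 0.13 (SE), or 0.06 without inhibitor 3.

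BBC3 had the widest relative span of the members. It encodes PUMA, a BH3-only protein that binds every guardian and whose gene is a known target of FOXO3. BBC3 (ENSG00000105327.15; chromosome 19, 47220824 to 47232860) had values of 342, 315 and 929.9 in inhibitor libraries and 355, 327 and 388 in control libraries. The inhibitor 3 value was 2.72 times the median of the other 5, and the other 2 inhibitor values were each slightly under the control of the same experiment. The log2 difference of 0.38 ± 0.39 (SE; 95% interval -0.53 to 1.30) was therefore set by inhibitor 3, and it was -0.12 without it. BCL2L11 (ENSG00000153094.21; chromosome 2, 111120914 to 111168445), which encodes BIM and is likewise known as a FOXO3 target, had values of 309.7, 335 and 513 in inhibitor libraries and 348, 321.5 and 316 in control libraries. It too was highest in inhibitor 3, at 1.595 times the median of the other 5, with the remaining libraries mixed. Its log2 difference was 0.196 ± 0.21 (SE), and it was -0.0273 without inhibitor 3.

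BID and BAD were low in inhibitor 3, as BAX was. BID (ENSG00000015475.18; chromosome 22, 17734138 to 17774665) encodes the protein that caspase-8 cleaves to carry a death receptor signal to mitochondria. Its values were 1386.5, 1356 and 775 in inhibitor libraries and 1273, 1364 and 1234 in control libraries. Inhibitor 3 alone stood low, and inhibitor 1 was the highest of all. The log2 difference of -0.19 ± 0.23 (SE) was 0.0887 without inhibitor 3. BAD (ENSG00000002330.13; chromosome 11, 64269828 to 64284704) encodes a protein that binds BCL-XL and is held by 14-3-3 proteins once phosphorylated. BAD values were 456, 484 and 310.3 in inhibitor libraries and 422, 496 and 512 in control libraries. Here again inhibitor 3 alone was low, at 0.642 times the median of the others. The log2 difference of -0.21 ± 0.198 (SE) was -0.0147 without it.

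BIK and PMAIP1 did not depart in inhibitor 3. BIK (ENSG00000100290.2; chromosome 22, 43110750 to 43129712), whose BH3-only protein sits mainly at the endoplasmic reticulum, had values of 476, 499.9 and 477 in inhibitor libraries and 464, 517 and 448 in control libraries. All inhibitor values lay within the control range. The log2 difference was 0.03 ± 0.12 (SE), with a 95% interval from -0.26 to 0.32. PMAIP1 (ENSG00000141682.11; chromosome 18, 59899996 to 59904305) encodes NOXA, a BH3-only protein that binds MCL1 and promotes its turnover. Its values were 70.2, 57.7 and 66.4 in inhibitor libraries and 85.3, 80.1 and 69.25 in control libraries. The groups met only where inhibitor 1 exceeded control 3, by less than 1 unit. PMAIP1 was lower with the inhibitor in each experiment, by ratios of 0.823, 0.72 and 0.959, and its log2 difference was -0.27 ± 0.22 (SE; 95% interval -0.78 to 0.25; limma adjusted p 0.899). The difference was -0.29 without inhibitor 3, so it did not rest on that library. PMAIP1 was also the member with the fewest adjusted counts, at 68, 57 and 64 in inhibitor libraries and 104, 75 and 67 in control libraries.

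**Figure D2:**
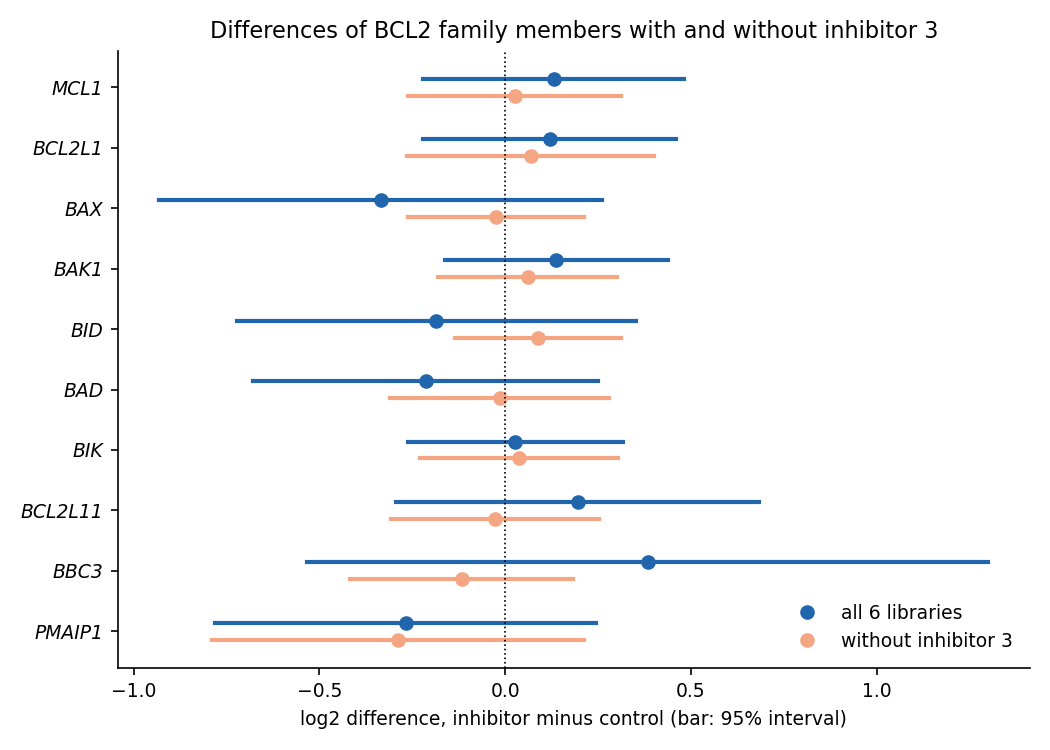
Log2 difference, inhibitor minus control, of each member with its 95% interval from limma, with all 6 libraries and without inhibitor 3. Every interval spans 0, and without inhibitor 3 the differences lie between -0.29 (PMAIP1) and 0.0887 (BID), and the intervals of BBC3, BAX and BID become narrower.

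BAX and PMAIP1 were the 2 of 10 members that were lower in all 3 experiments, where 12.2% of all genes tested were, and 0 of 10 were higher in all 3, where 12.2% of all genes were. In experiment 1 the ratio of inhibitor to control lay between 0.823 and 1.09 for all 10 members, and in experiment 2 between 0.72 and 1.12. In experiment 3 it ran from 0.543 (BAX) to 2.399 (BBC3). The number of members with an absolute log2 difference under 0.3 was 10 in experiment 1, 9 in experiment 2 and 2 in experiment 3. An exact two-sided permutation test of the 6 values of a gene gave p between 0.2 and 0.9 for the members, and 0.1 is the smallest p that 3 against 3 libraries allow.

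Inhibitor 3 departed across the whole table, and the members were counted against that background. Of the 10 members, 2 (BBC3 and BCL2L11) lay more than 1.5-fold above the median of the other 5 libraries, where 18.1% of all genes did. Another 3 (BAX, BID and BAD) lay more than 1.5-fold below it, where 17.5% of all genes did. These shares of the members were near those of all genes and are not a result about the family. In the other 5 libraries 0 of 10 members departed by that much, where between 5.75% and 11.3% of all genes did in each, and their ratios ranged from 0.772 to 1.23. By rank within a library, BBC3 stood at percentile 74.2 in inhibitor 3 and between 44.6 and 49.4 in the other 5, and BAX at percentile 62.4 in inhibitor 3 and between 77.6 and 80.7 in the others. These departures describe 1 library, and what set it apart was not tested.

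**Figure D3:**
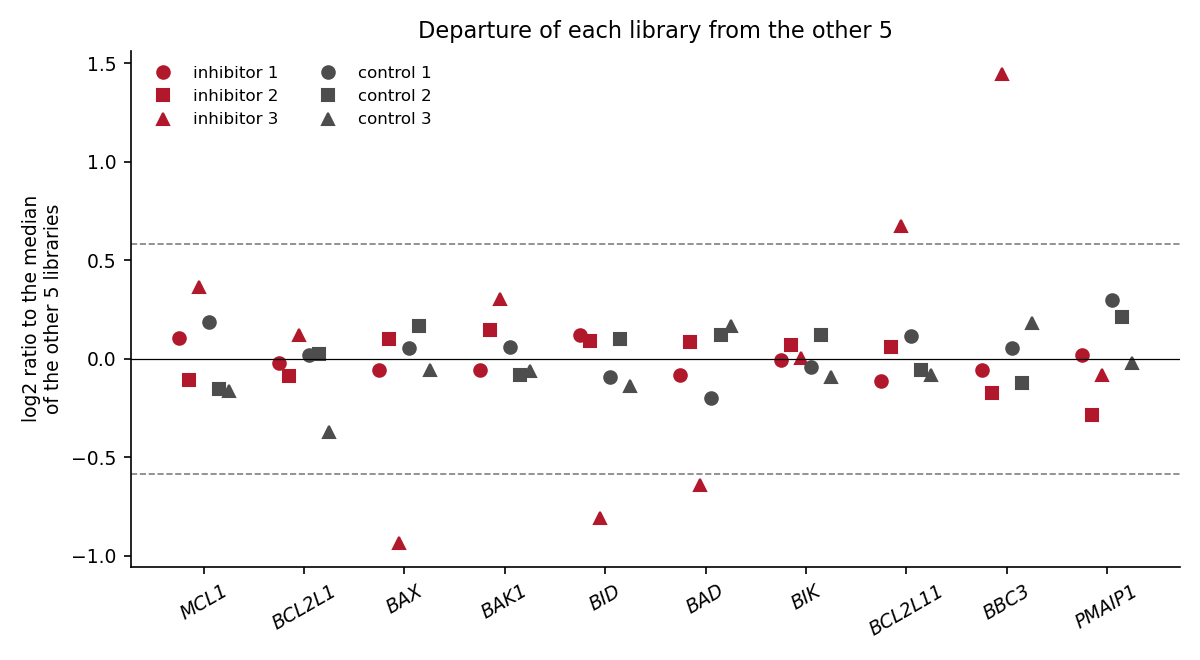
Log2 ratio of each library to the median of the other 5, for each member, with dashed lines at 1.5-fold. Only inhibitor 3 (red triangle) passes the lines, upwards for BBC3 (2.72 times) and BCL2L11 (1.595 times) and downwards for BAX, BID and BAD (0.523, 0.572 and 0.642 times).

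The sequence around the start sites of the 4 members that departed furthest in inhibitor 3 is shown to set the promoters of members that were high there beside those that were low. RefSeq windows of 300 bases (GRCh38.p14, 250 bases before and 50 after a start site) were matched by symbol for 8 of the 10 members, 14 windows in all. Capitals mark the E-box CACGTG, a palindrome read by MYC and related factors, and the forkhead motif GTAAACA on either strand, and no such matches overlap.
BAX (chr19:48954625-48954924, plus strand): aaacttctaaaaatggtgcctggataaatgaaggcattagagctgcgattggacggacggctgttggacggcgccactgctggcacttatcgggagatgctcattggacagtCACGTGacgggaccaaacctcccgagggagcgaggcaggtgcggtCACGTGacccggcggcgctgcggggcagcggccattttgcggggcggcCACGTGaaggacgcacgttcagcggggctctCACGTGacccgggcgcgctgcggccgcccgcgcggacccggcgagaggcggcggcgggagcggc
BID (chr22:17773934-17774233, minus strand): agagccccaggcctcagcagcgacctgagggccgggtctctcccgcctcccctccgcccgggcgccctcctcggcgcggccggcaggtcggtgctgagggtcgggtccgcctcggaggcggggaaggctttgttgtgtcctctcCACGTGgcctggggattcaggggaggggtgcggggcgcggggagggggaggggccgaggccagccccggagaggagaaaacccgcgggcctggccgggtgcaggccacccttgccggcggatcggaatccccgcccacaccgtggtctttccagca
BBC3 (chr19:47232618-47232917, minus strand): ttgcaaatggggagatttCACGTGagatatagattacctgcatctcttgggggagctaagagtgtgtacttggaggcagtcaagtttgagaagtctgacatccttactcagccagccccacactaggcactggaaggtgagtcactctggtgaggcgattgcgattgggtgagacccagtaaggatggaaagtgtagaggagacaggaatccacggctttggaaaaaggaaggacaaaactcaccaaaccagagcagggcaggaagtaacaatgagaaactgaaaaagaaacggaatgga
BCL2L11 (chr2:111120664-111120963, plus strand): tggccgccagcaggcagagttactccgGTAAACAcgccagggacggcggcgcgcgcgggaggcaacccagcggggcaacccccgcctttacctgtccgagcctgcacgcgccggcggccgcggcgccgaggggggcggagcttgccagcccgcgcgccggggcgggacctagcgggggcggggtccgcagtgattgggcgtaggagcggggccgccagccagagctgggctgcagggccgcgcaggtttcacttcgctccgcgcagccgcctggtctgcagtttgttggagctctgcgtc
BAX had 4 copies of CACGTG in its window. CACGTG occurred in 7.26% of the 35116 RefSeq windows of this length, and only 5 of them, or 0.0142%, held 4 or more copies. BID had 1 copy, which lay in 2 overlapping windows of its 5, of which 1 is printed. BBC3 had 1 copy in its window. BAD had none in its 2 windows. GTAAACA was found in the BCL2L11 window alone among the members, and in 3.42% of all windows. A p53 half-site motif was also searched, and was found in the BAK1 window alone among the members and in 6.63% of all windows. A match describes the letters in these windows and shows no binding in these cells.

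Whether the balance between partners moved was described by 5 log2 differences taken within each library, without a test. MCL1 minus PMAIP1, a guardian and the BH3-only protein that binds it selectively, was 5.49, 5.66 and 5.83 in inhibitor libraries and 5.29, 5.15 and 5.35 in control libraries. The groups did not overlap in this pair and overlapped in the other 4. Single genes were apart in 2.71% (higher) and 2.9% (lower) of all genes tested. The matching share over pairs of genes was not measured, so nothing is read from this count. The groups differed by 0.31 without inhibitor 3, against 0.40 with it. BCL2L1 minus BAX was 0.87, 0.70 and 1.87 in inhibitor libraries and 0.84, 0.73 and 0.52 in control libraries. That pair was widest in inhibitor 3, where BAX was low, and averaged 1.15 ± 0.63 in inhibitor and 0.70 ± 0.16 in control libraries (SD, n = 3 each). BCL2L1 minus BAD was 2.17, 2.02 and 2.84 in inhibitor libraries and 2.30, 2.07 and 1.65 in control libraries. It likewise stood highest in inhibitor 3, and the groups overlapped. MCL1 minus BAK1 averaged 2.36 ± 0.13 in inhibitor and 2.37 ± 0.098 in control libraries, and MCL1 minus BCL2L11 averaged 3.14 ± 0.23 and 3.20 ± 0.067 in inhibitor and control libraries (SD, n = 3 each).

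**Figure D4:**
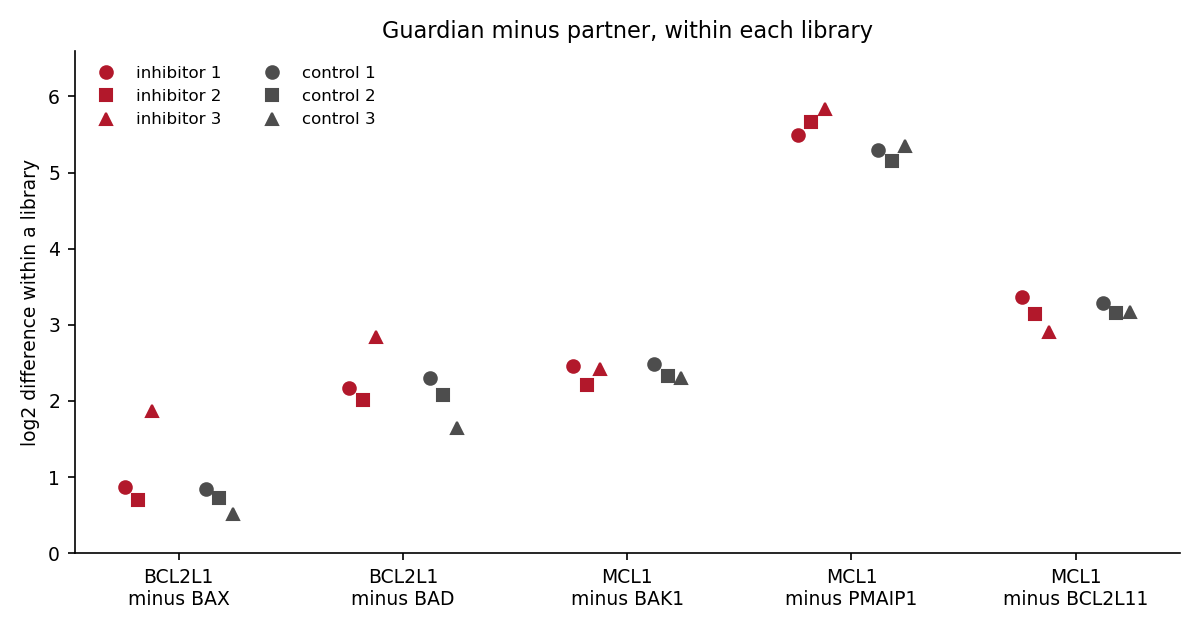
Log2 value of a guardian minus that of a partner within each library, for 5 pairs, in inhibitor (red) and control (grey) libraries with symbols for the experiment. For MCL1 minus PMAIP1 the inhibitor libraries (5.49 to 5.83) lie above the control libraries (5.15 to 5.35), and for BCL2L1 minus BAX inhibitor 3 alone stands at 1.87.

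The rest of the pathway also gave no gene past the threshold. Of all genes tested, 0% passed an adjusted and 0.935% an unadjusted limma p of 0.05. The other BCL2 family list had 15 genes, of which 11 were tested, with 8 positive and 3 negative log2 differences, a median of 0.099 (0.03 without inhibitor 3) and 0 genes past an adjusted or unadjusted p of 0.05. BCL2, the founding guardian of the family, was near the floor of the table, with values of 8.26, 9.11 and 9.34 in inhibitor libraries and 9.03, 10.7 and 10.3 in control libraries, and was not tested. The list of mitochondrial release and apoptosome genes (16 of 16 tested) had 12 positive and 4 negative differences and a median of 0.09, with or without inhibitor 3. The death receptor list (10 of 11 tested) had 7 positive and 3 negative differences and a median of 0.12, which was -0.07 without inhibitor 3. The list of regulators of the members (16 of 16 tested) had 10 positive and 6 negative differences and a median of 0.09, which was 0.015 without inhibitor 3. None of these 4 lists held a gene whose groups were apart, where 2.71% (higher) and 2.9% (lower) of all genes tested were.

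Inhibitor 3 also departed in some other genes of the pathway. Those named here were chosen after their values were seen. More than 1.5-fold above the median of the other libraries in inhibitor 3 were 3 of 11 tested genes of the other BCL2 family list, 1 of 16 for mitochondrial release and the apoptosome, 5 of 10 for the death receptor route and 2 of 16 for the regulators, where 18.1% of all genes were. The counts below were 0, 1, 0 and 2 for the same lists, where 17.5% of all genes were. CASP8, the protease that cleaves BID, had values of 216, 193 and 455 in inhibitor libraries and 236, 202 and 222 in control libraries, and CFLAR, its inhibitor, CASP10, CASP6 and the TRAIL receptor gene TNFRSF10B were high there too. FOXO3, a transcription factor known to act on BBC3 and BCL2L11, had values of 411, 389 and 1147 in inhibitor libraries and 478, 407 and 413 in control libraries. Whether FOXO3 bore on those members was not tested. DDIT3, the other regulator above 1.5-fold, had 415, 391 and 830 in inhibitor libraries and 445, 366 and 384 in control libraries. CYCS, the cytochrome c gene, was low in inhibitor 3, with values of 8528, 7971 and 4092 in inhibitor libraries and 8994, 8339.7 and 5854 in control libraries. APAF1, whose protein joins cytochrome c in the apoptosome, was high there, with values of 94.98, 226 and 621 in inhibitor libraries and 192, 198 and 209.8 in control libraries. YWHAB, a 14-3-3 gene whose product holds phosphorylated BAD, had 2792 in inhibitor 3 and between 4946 and 7602 in the other 5 libraries. The other 14-3-3 genes listed, YWHAE and YWHAZ, were not low there. Their log2 differences from the median of the other 5 libraries were 0.26 and 0.55. RPS6KB1, the other regulator below 1.5-fold, had 393 in inhibitor 3 and between 708 and 794 in the other libraries. As for all genes, high and low values both occurred in inhibitor 3, and limma gave each of these genes an adjusted p between 0.899 and 0.958.

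**Figure D5:**
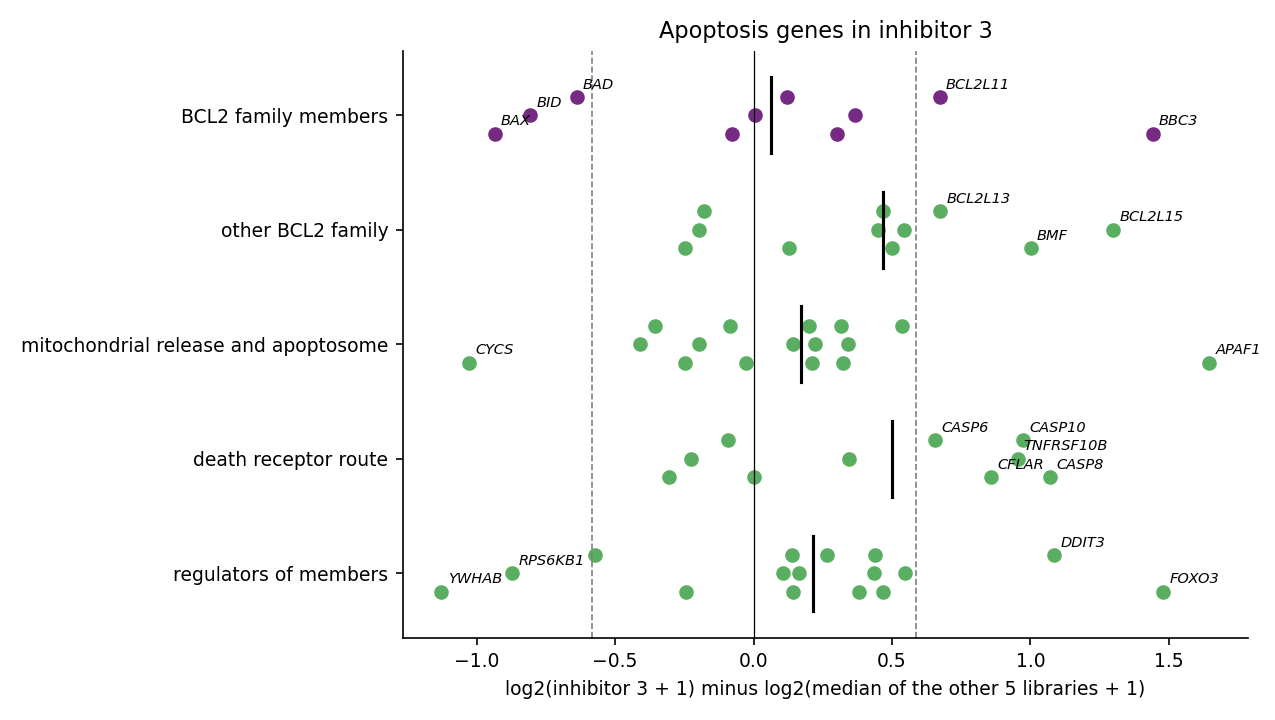
Inhibitor 3 against the median of the other 5 libraries, as a log2 difference, for the tested genes of 5 lists, where black bars are list medians, dashed lines mark 1.5-fold and genes beyond them are named. Above the upper line lie 2, 3, 1, 5 and 2 genes of the lists from top to bottom, and below the lower line 3, 0, 1, 0 and 2, where 18.1% and 17.5% of all genes lie.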

How the data were processed

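Messenger RNA of 3 inhibitor and 3 control samples of OE19 cells was analysed, grouped by sample title. According to the methods and the submitters' processing notes, stranded libraries were trimmed with cutadapt 1.8, checked with FastQC 0.11.8 and aligned with STAR 2.7.0f to GRCh38. The counting of reads is not described in these sources. Counts were adjusted by the authors within each library for GC content and length (EDASeq) and scaled between libraries with DESeq2, so what was deposited is a normalized signal rather than raw counts. Division of each column by its smallest value above 0 gave whole numbers for 100% of values (tolerance 1e-06). In each library 15 genes shared the highest value, with ERBB2 among them in inhibitor 1, inhibitor 3 and control 1, so differences at the top of the scale cannot be read.

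The 12723 genes that averaged 10 or more were fitted as log2(value + 1) in limma 3.58.1 (R 4.3.3) with a trended prior and no block; p-values were adjusted over all of them by Benjamini-Hochberg. Intervals are limma's at 95%. As alternatives the whole numbers were tested with edgeR 4.0.16 and with DESeq2 1.42.0. The column headers number shared experiments, which was taken as the pairing; deviations of same-numbered libraries from their group means correlated at 0.21, 0.15 and -0.0043. The 3 cultures of a group were separate experiments. The members and lists were chosen with earlier results of these data known. Named were all members, BCL2, and list genes whose groups did not overlap, of which there were 0; others named were chosen after their values were seen. List genes were matched by Ensembl identifier, positions and start-site windows by symbol to RefSeq. Gene lengths and GC content, from the longest GENCODE transcript on GRCh37, were found for 99.5% of tested genes. Results for some withheld items are not reported here.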

Additional observations from a re-analysis of the deposited data

How the results depend on the processing

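In all 17 alternative fits, 0 members and 0 genes passed an adjusted p of 0.05, and the smallest adjusted p of a member was 0.477 (BAX without inhibitor 2). Of 170 member values under these fits, 163 kept the direction of the reported value and 7 turned. BIK was -0.0293 with sample weights and -0.00299 after a regression on length and GC content, which with rank positions was chosen after seeing the data. With 1 library left out the log2 differences ran from -0.33 to 0.0887 for BID, from -0.12 to 0.66 for BBC3 and from -0.0273 to 0.34 for BCL2L11, with the turned value in each without inhibitor 3. They ran from -0.0047 to 0.18 for BCL2L1 and from -0.0155 to 0.0883 for BIK, which turned without control 3. The number of pairs whose groups did not overlap ran from 1 to 2, and was 2 without inhibitor 1 and without inhibitor 2.

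At an unadjusted p below 0.05 the 119 genes became 76 with a mean value of at least 50, 181 without a trend, 315 with sample weights, which gave inhibitor 3 the lowest weight, and 250 with DESeq2. With the experiment as a replicate block there were 128 genes at that level and 0 after adjustment, and the block changed no call. With 1 library left out they numbered 43 (without control 3) to 1360 (without inhibitor 2), with 63 without control 2 and 180 without inhibitor 3. Genes whose groups did not overlap numbered 714 with all libraries. With 1 library left out they numbered 1320 (without control 3) to 3906 (without inhibitor 2). Fewer libraries separate more readily, which bears on the rise from 714. It does not bear on the span between these fits, since each left out 1 library. The causes of the other shifts were not tested. The count of genes whose groups did not overlap has no value under settings that alter the test alone. PMAIP1 rested on 57 to 104 adjusted counts per library, the fewest of the members. Adjusted counts are not reads, so its precision cannot be read from them.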
